A study of Mus musculus with 6 samples.

Results

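The probes for mouse miR-467, a rodent microRNA family, were followed across 6 microarrays of bone marrow hematopoietic stem and progenitor cells. Members were chosen by name: every mouse-named miR-467 probe, whatever its letter or suffix, which gave 16 of the 1083 mouse-named probes and 16 of all 2990 probes on the array. They cover 8 paralogs, lettered a to h (mmu-miR-467a, mmu-miR-467b, mmu-miR-467c and so on to mmu-miR-467h, written below without the species prefix), with 8 probes of the plain name (referred to as unsuffixed), 4 probes marked with a star (a, b, d and e) and 4 probes ending in -P (c, f, g and h). In the older naming scheme a star marked the arm of the hairpin thought to be the minor product. The labels do not define -P, which is read here as a probe of the precursor region. The family was picked for study because several of its probes had stood among the largest differences between the 2 groups of these same arrays, so differences between the groups, and the counts of probes called by the fit over all mouse probes, are given as descriptions and support nothing.

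The study compared 3 cKO mice (genotype written Rprtf/f, Mx1-Cre+) with 3 Ctrl littermates (Rprtf/f, Mx1-Cre-), all female, C57BL/6 and 10 weeks old, to ask whether loss of mTORC1 signalling alters microRNA production. Both groups carry floxed alleles of the gene for Raptor, the subunit that brings substrates to the kinase complex mTORC1. Both groups also received polyinosinic:polycytidylic acid (pIpC), 400 µg in each of 7 injections, which raises interferon and through it switches on the Mx1 promoter that drives Cre. Lineage-negative, cKit-positive cells were taken 10 days after the last injection, and each array holds 5 µg of total RNA from 1 mouse. Mx1-Cre also acts outside blood cells, and cells with this surface phenotype are a mixture of stem cells and committed progenitors. In such bulk RNA, fewer cells of a type and less RNA per cell cannot be told apart. The deletion of Rptor itself was not measured by these arrays.

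A microRNA is cut from a hairpin transcript by Drosha and then by Dicer into a short duplex, of which 1 strand, or each strand in some copies, is loaded into an Argonaute protein; bases 2 to 8 of the loaded strand, the seed, do most of the target recognition. Most miR-467 genes lie in a large rodent-specific cluster in an intron of Sfmbt2, a Polycomb gene best known for its imprinted expression in the placenta, where they alternate with copies of miR-466, miR-297 and miR-669. Many of these hairpins contain dinucleotide repeats, with 1 arm rich in A and C and the other in U and G.

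Mature sequences were taken from RefSeq (GRCm38.p6), where 3 of the 8 unsuffixed names had an entry of the same name: miR-467f, miR-467g and miR-467h. They are shown because they fall on either side of the repeat: miR-467f and miR-467g carry the A and C strand and miR-467h the U and G strand. Capitals mark the seed, and each is written in the direction of the RNA.
miR-467f: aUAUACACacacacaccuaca
miR-467g: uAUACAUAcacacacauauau
miR-467h: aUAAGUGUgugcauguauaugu
A and C make up 85.7% of the bases of miR-467f, 71.4% of those of miR-467g and 31.8% of those of miR-467h. No seed is shared among the 3 of them. miR-467f and miR-467g have a run of 11 bases in common, whereas the longest run that miR-467h shares with either is 5 bases. A further 3 sequences of the U and G kind, from the neighbouring repeat families, are shown for comparison with miR-467h, again with the seed in capitals.
miR-466j: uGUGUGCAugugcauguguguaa
miR-466k: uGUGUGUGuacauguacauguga
miR-669n: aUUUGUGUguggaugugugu
The RefSeq hairpin of miR-467h (chr9:115381819-115381939, plus strand) is shown in full, with the mature sequence in capitals, because its 121 bases show how far the repeat extends beyond the mature arm that the unsuffixed probe is named for. A and C make up 29.8% of its bases, so this hairpin is not an example of one with an arm rich in A and C.
Mir467h hairpin: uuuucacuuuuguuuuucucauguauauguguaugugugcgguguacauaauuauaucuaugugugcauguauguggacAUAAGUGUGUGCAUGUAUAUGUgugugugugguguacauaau

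By the RefSeq gene table, 14 of 17 Mir467 genes lie inside Sfmbt2 (chr2:10370440-10595253), between positions 10473931 and 10507714. These are Mir467b, Mir467c, Mir467d, Mir467e and 10 copies of Mir467a. Mir467g (chr5:34732853-34732972) lies within the span of Grk4, Mir467f (chr11:69635400-69635519) within that of Fxr2, and Mir467h (chr9:115381819-115381939) within no protein-coding gene of the table. The 16 probes are therefore named for genes at 4 or more separate places in the genome. The array's probe sequences were not used here, and how much signal the probes of different paralogs share was not tested.

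The values are relative intensities on a linear scale, without further normalization. The median over mouse probes ranged from 0.434 to 0.481 among cKO arrays, against 0.427 to 0.474 among Ctrl arrays. The random-sequence level of an array is the 95th percentile of its 38 probes of random sequence, which was 0.377 to 0.431 in cKO and 0.423 to 0.463 in Ctrl. The random-sequence probes were on average 0.04 lower in cKO on the log2 scale, and the 6 probes for snoRNA and GAPDH, which are not microRNAs, 0.58 higher. Single snoRNA and GAPDH probes differed by -0.007 to 1.17. Their mean log2 value was 0.04 on cKO replicate 3, -0.47 and -0.45 on the other cKO arrays, and -0.95 to -0.79 in Ctrl. Of 6 microRNAs that mark hematopoietic cells, 4 were above the random-sequence level on all 6 arrays, led by the myeloid miR-223, which averaged 27.7 in cKO (SD 9.29) against 15.9 in Ctrl (SD 0.720); miR-126-3p and miR-142-3p were above it on no Ctrl array. The summed level of those 6 was 27.6 to 47.7 in cKO and 20.4 to 21.6 in Ctrl. For other cell types the summed level of 2 lymphoid markers was 3.41 to 7.40 in cKO and 1.53 to 1.76 in Ctrl, with both above the random-sequence level on every array, and that of 5 epithelial markers was 2.15 to 2.38 against 1.82 to 2.10, with none above it on every array. For 5 stromal markers it was 2.98 to 4.28 against 2.44 to 3.12, with 2 above on every array, and miR-145 and miR-199a-3p above on none. For 3 erythroid markers it was 1.80 to 2.24 against 1.77 to 2.76, and for 5 of muscle, liver and brain 1.92 to 2.04 against 2.00 to 2.14, with 1 of each list above on every array. The part of these marker and snoRNA differences in the miR-467 values was not tested.

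Of the 16 miR-467 probes, 12 were above the random-sequence level on all 3 arrays of at least 1 group, and 10 of them on all 6 arrays. The other 4 (miR-467b, miR-467d, miR-467g-P and miR-467h-P) stayed between 0.327 and 0.520 on every array and carry little information on either group. Over all 1083 mouse probes, 572 were above the level on all 3 arrays of at least 1 group and 440 on all 6 arrays. No miR-467 probe reached the scanner limit.

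All 4 star probes, the unsuffixed miR-467f and the -P probe of miR-467c were 2.06- to 5.66-fold higher in cKO, and in each of these 6 every cKO array lay above every Ctrl array. The other 7 unsuffixed probes lay between -0.13 and 0.63 on the log2 scale and the other 3 -P probes between -0.03 and 0.25. In the fit over all mouse probes (limma, adjusted p under 0.05) these 6 of 16 were called higher and none lower, where 6.46% of all mouse probes were called higher (70 of 1083) and 0.369% lower (4 of 1083). Groups that did not overlap, with cKO above, were seen in 7 of 16 miR-467 probes and in 15.8% of all mouse probes. Because the family was chosen from this contrast, nothing is read from these counts. The median log2 difference was 0.37 over the 16 probes and 0.04 over all mouse probes.

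**Figure D1:**
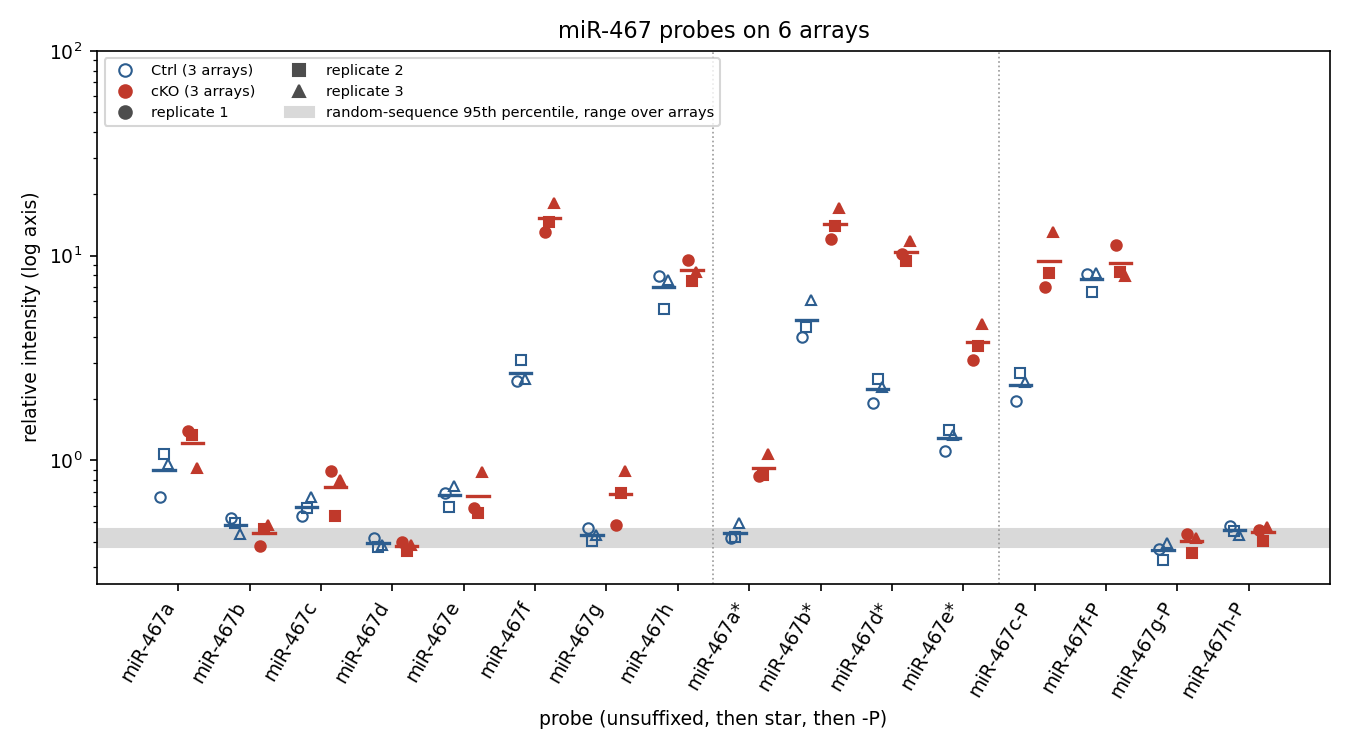
Relative intensity (log axis) of the 16 miR-467 probes on each of the 6 arrays, with unsuffixed probes on the left, star probes in the middle and -P probes on the right; open blue symbols are Ctrl, filled red symbols cKO, the symbol shape gives the replicate and the short lines the group means. The grey band is the range over arrays of the random-sequence level (0.377 to 0.463), and the groups stand well apart for miR-467f, the 4 star probes and miR-467c-P.

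Among the star probes, named for the minor arm of hairpins in the Sfmbt2 cluster, miR-467d* showed the widest gap. It measured 10.2, 9.36 and 11.8 on the cKO arrays 1 to 3 and 1.91, 2.49 and 2.28 on the Ctrl arrays. The lowest cKO array was 3.75 times the highest Ctrl array. The means of the 3 arrays were 10.4 ± 1.21 (SD) for cKO against 2.23 ± 0.297 for Ctrl, and the log2 difference was 2.23 ± 0.29 (SE), or 4.70-fold.

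miR-467b* measured 12.0, 14.0 and 17.0 in cKO and 3.99, 4.47 and 6.08 in Ctrl. Its lowest cKO array stood 1.97 times above the highest Ctrl array, and Ctrl replicate 3 was the highest of its group. The log2 difference was 1.57 ± 0.30 (SE; 2.97-fold). It was no longer called when Ctrl replicate 1 was left out, after quantile normalization, or without moderation of the variances.

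miR-467e* measured 3.07, 3.62 and 4.65 in cKO and 1.10, 1.41 and 1.32 in Ctrl, so that the spread within either group was smaller than the gap between the groups. The log2 difference was 1.55 ± 0.27 (SE; 2.93-fold), close to that of miR-467b*. miR-467a* was the dimmest of the 4, at 0.839, 0.847 and 1.07 in cKO and 0.415, 0.423 and 0.492 in Ctrl. Only 1 of its 3 Ctrl arrays was above the random-sequence level, so its difference of 1.05 ± 0.16 (SE; 2.06-fold) is measured against a group that is mostly at background. That size depended on the treatment of background and on the scaling: it was 0.03 and not called with all values raised to 1, 0.47 and not called with the snoRNA and GAPDH probes subtracted, and 2.99 after the random-sequence median was subtracted.

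The unsuffixed probes of the same 4 paralogs were not called. Those of miR-467b and miR-467d lay near the random-sequence level and carry little information on a difference. miR-467a, named for the major arm, measured 1.39, 1.33 and 0.914 in cKO and 0.660, 1.07 and 0.958 in Ctrl, and the groups overlapped. Its highest cKO array was replicate 1, while miR-467a* was highest on replicate 3. The log2 difference of miR-467a was 0.44 ± 0.25 (SE), and it turned to -0.14 when the snoRNA and GAPDH probes set the scale.

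miR-467e measured 0.582, 0.552 and 0.881 in cKO and 0.692, 0.592 and 0.752 in Ctrl. These groups overlapped fully, with a log2 difference of -0.04 ± 0.20 (SE). miR-467b and miR-467d, both near the random-sequence level, differed by -0.13 ± 0.14 and -0.04 ± 0.11 (SE). For miR-467a and miR-467e, the unsuffixed probes were above the random-sequence level on all 6 arrays. Their mean log2 ratio of the star probe to the unsuffixed probe on the same array was higher in cKO by 0.60 and 1.59. Scaling a whole array by a constant does not alter these ratios, but a constant added to every value would. The unsuffixed miR-467e was above the highest random-sequence probe on no array, so its ratios rest on values near background. For miR-467a the ratios overlapped, at -0.73, -0.65 and 0.23 in cKO and -0.67, -1.34 and -0.96 in Ctrl. For miR-467e they did not, at 2.40, 2.71 and 2.40 in cKO and 0.67, 1.25 and 0.81 in Ctrl. miR-467a* was above the random-sequence level on 1 of 3 Ctrl arrays.

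For miR-467c, the remaining paralog inside Sfmbt2, the larger difference was on the -P probe. miR-467c-P measured 6.98, 8.19 and 13.1 in cKO and 1.95, 2.65 and 2.40 in Ctrl, and cKO replicate 3 stood apart from the other cKO arrays. The means of the 3 arrays were 9.42 ± 3.23 (SD) for cKO against 2.34 ± 0.358 for Ctrl, and the log2 difference was 1.97 ± 0.32 (SE; 3.92-fold), or 1.71 without cKO replicate 3. The unsuffixed miR-467c measured 0.889, 0.534 and 0.802 in cKO and 0.535, 0.586 and 0.662 in Ctrl. Those groups overlapped, with cKO replicate 2 below every Ctrl array, and the log2 difference was 0.29 ± 0.20 (SE).

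miR-467f, encoded on chromosome 11 apart from the cluster, showed the reverse arrangement of its probes. The unsuffixed probe measured 13.0, 14.6 and 18.0 in cKO and 2.43, 3.09 and 2.50 in Ctrl, and every cKO array was at least 4.20 times every Ctrl array. The means of the 3 arrays were 15.2 ± 2.53 (SD) for cKO against 2.67 ± 0.365 for Ctrl, which gave a log2 difference of 2.50 ± 0.29 (SE; 5.66-fold), the largest of the 16 and rank 3 among the 1083 mouse probes. Its -P probe measured 11.3, 8.34 and 7.92 in cKO and 8.16, 6.64 and 8.19 in Ctrl. There the groups overlapped and replicate 3 was the lowest cKO array, with a log2 difference of 0.25 ± 0.29 (SE). The log2 ratio of the -P probe to the unsuffixed probe on the same array therefore differed by -2.25 between cKO and Ctrl, opposite in sign to the 1.68 of miR-467c.

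miR-467g, on chromosome 5, is the other A and C rich sequence shown above. It measured 0.485, 0.690 and 0.887 in cKO and 0.465, 0.402 and 0.431 in Ctrl, above the random-sequence level on 3 cKO arrays and 1 Ctrl array. The groups did not overlap, but cKO replicate 1 was only 1.04 times the highest Ctrl array. The log2 difference was 0.63 ± 0.19 (SE) and the probe was not called. With samples paired by replicate number, a fit that called 8.31% of mouse probes higher, miR-467g was called. It was also called without cKO replicate 1 (log2 difference 0.86), where 81 of 1083 mouse probes were called higher. A fit of only the probes above the random-sequence level called it too, with 81 of 572 called higher.

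miR-467h, on chromosome 9 and of the U and G kind, measured 9.52, 7.53 and 8.34 in cKO and 7.90, 5.50 and 7.60 in Ctrl. The groups overlapped although the probe was well above the random-sequence level on all 6 arrays, with a log2 difference of 0.29 ± 0.29 (SE). After quantile normalization it was -0.31 and with snoRNA and GAPDH scaling -0.29. miR-467h-P stayed between 0.405 and 0.478, near the random-sequence level, and differed by -0.03 ± 0.12 (SE).

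**Figure D2:**
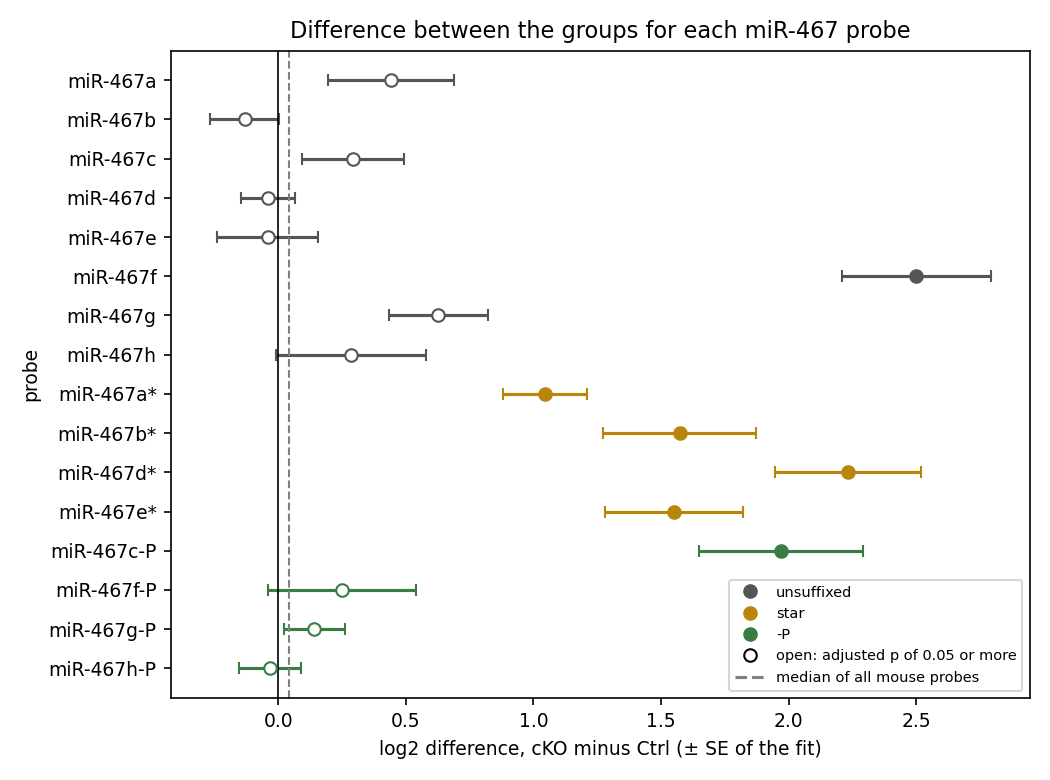
Log2 difference (cKO minus Ctrl, x axis) of each miR-467 probe with the SE of the fit, n = 3 arrays a group; filled circles had an adjusted p under 0.05, grey is unsuffixed, gold star and green -P. The 6 filled circles lie between 1.05 and 2.50 and comprise all 4 star probes, miR-467f and miR-467c-P, while the median of all mouse probes (dashed) is at 0.04.

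Probes were also grouped by location. Of the 10 probes for paralogs inside Sfmbt2 (a to e) 5 were called higher, with a median log2 difference of 0.74 and a range from -0.13 to 2.23. Of the 6 probes for paralogs elsewhere (f to h) 1 was called higher, with a median of 0.27 and a range from -0.03 to 2.50. Over all mouse probes 6.46% were called higher. All 4 star probes belong to paralogs inside Sfmbt2, so location and kind of probe cannot be told apart in these counts and medians. Both places held probes with differences above 2 and probes with differences near 0. By kind of probe, the median was 1.56 over the 4 star probes, 0.29 over the 8 unsuffixed probes and 0.20 over the 4 -P probes. Over all mouse probes these medians were 0.03 for 120 star probes, 0.06 for 604 unsuffixed or arm-named probes and 0.03 for 354 -P probes. Of the 120 star probes 6 were called higher: the 4 of miR-467 with miR-297a* and miR-297c*.

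The array of each group with the extreme value was often shared. In all 6 called probes cKO replicate 3 was the highest cKO array and Ctrl replicate 1 the lowest Ctrl array. The log2 differences without cKO replicate 3 were still above 0 in each of the 6, and 6 probes were called. In that run 124 of all 1083 mouse probes were called higher, against 70 with every array. Within pairs of the same replicate number, the difference of miR-467f was 2.42, 2.24 and 2.84 and that of miR-467d* 2.42, 1.91 and 2.37, so no pair stood apart. For miR-467a* the 3 pairs gave 1.01, 1.00 and 1.12.

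The scaling of the arrays moved the counts but not the direction of the 6 called probes. When the snoRNA and GAPDH probes set the scale, the median of all mouse probes moved from 0.04 to -0.54 and the calls over all mouse probes from 70 higher and 4 lower to 35 higher (3.23%) and 310 lower. Among the miR-467 probes 5 were then called higher and 1 lower, the latter being miR-467b at -0.71 ± 0.26 (SE), and miR-467a* was no longer called at 0.47 ± 0.27 (SE). Quantile normalization gave 32 higher (2.95%) and 8 lower over all mouse probes and 5 higher among the miR-467 probes. Without moderation of the variances 0.554% of mouse probes were called higher, and 2 miR-467 probes, miR-467f and miR-467d*, were among them. miR-467f and miR-467d* were called higher in all 19 alternative runs, miR-467e* in 18 of 19, miR-467c-P in 17 of the 18 that tested it, and miR-467a* and miR-467b* in 16 of 19.

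**Figure D3:**
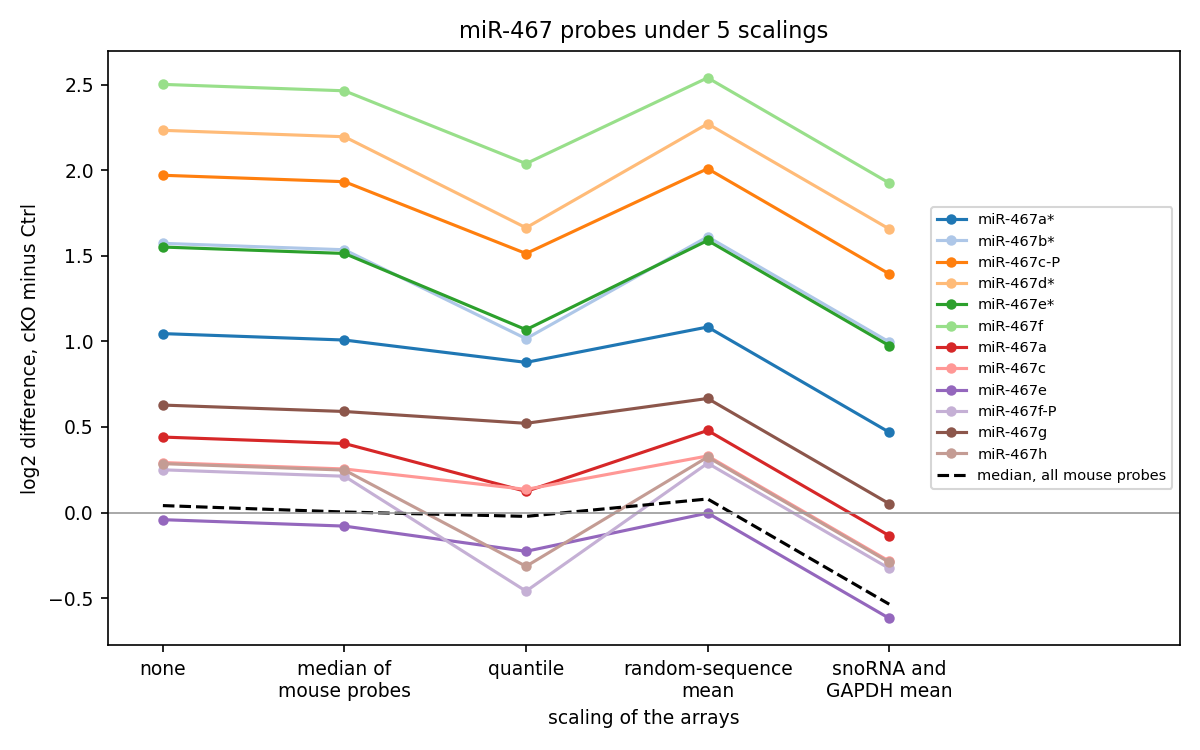
Log2 difference (cKO minus Ctrl, y axis) of the 12 miR-467 probes above the random-sequence level under 5 ways of scaling the arrays (x axis); each line is 1 probe and the dashed line is the median of all 1083 mouse probes. The 6 called probes stay above 0 in all 5, whereas miR-467f-P and miR-467h are below 0 after quantile normalization and after snoRNA and GAPDH scaling.

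The neighbouring repeat families of the Sfmbt2 cluster, taken by number, are given beside miR-467 with their probes divided by name; the division by arm was made after the values were seen. Over all mouse probes 6.46% were called higher. Among them were 6 of 120 star probes, 14 of 354 -P probes and 50 of 604 unsuffixed or arm-named probes. These counts include the repeat-family probes themselves. All 6 star probes come from miR-467 and miR-297, so they give no separate background for these families. Of 21 miR-466 probes 9 were called higher and none lower, with a median log2 difference of 0.31. These included all 6 probes named for the 3p arm (1.51 to 2.32), but only 2 of the 13 probes named for neither that arm nor a precursor. Of 10 miR-297 probes 3 were called higher, all of them star or 3p probes (1.22 to 1.37). Of 27 miR-669 probes 11 were called higher, among them 8 of 11 -P probes, whose median was 1.70, and the single 3p probe at 1.24. No difference between the families was tested.

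**Figure D4:**
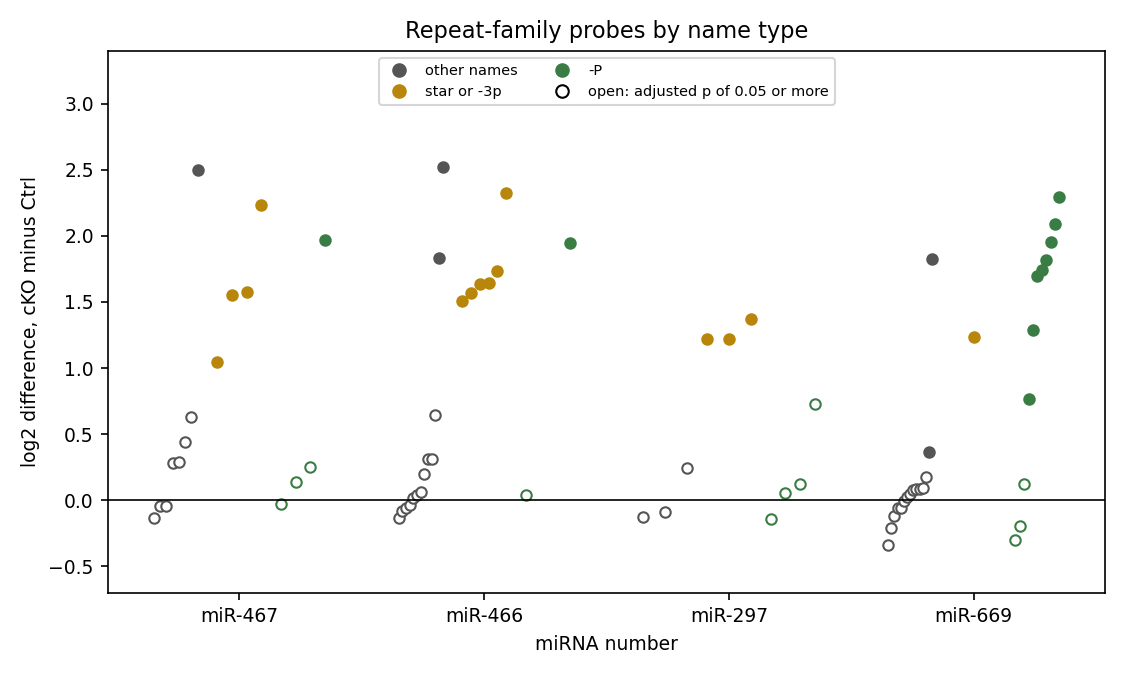
Log2 difference (cKO minus Ctrl, y axis) of every probe of miR-467, miR-466, miR-297 and miR-669 (x axis); gold points are star or 3p probes, green points -P probes and grey points all other names, and filled points had an adjusted p under 0.05. All gold points are filled and lie above 1, and most grey points lie between -0.34 and 0.64.

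The letter strings ACACAC and GUGUGU, which stand for the strands of the repeat, were searched on the mature strand of the 189 star, unsuffixed or arm-named probes with a RefSeq mature entry of the same name; each string is the reverse complement of the other. ACACAC is held by 11 of 1679 RefSeq mature sequences (0.655%) and GUGUGU by 17 (1.01%). Of the 5 matched probes with ACACAC, miR-467f (2.50), miR-574-3p (0.79) and miR-467g (0.63) were above the random-sequence level on all cKO arrays, while miR-362-3p (0.08) and miR-568 (-0.09) were above it on no array. The 6 matched probes with GUGUGU (miR-467h, miR-466j, miR-466k, miR-669n, miR-574-5p and miR-1187) were above the level on all 6 arrays and had log2 differences from -0.0043 to 0.29. The median over all 189 matched probes was 0.04. These are matches of letters in 11 probes, and the star probes of miR-467 are not among them.

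Likeness to the family was measured as Pearson's r over the 6 arrays with the mean log2 value of the 12 miR-467 probes above the random-sequence level, among 560 other mouse probes above it; the arrays fall into 2 groups, so r mostly reflects the gap between them. The 6 most alike were miR-669b-P (r = 0.997), miR-425 (r = 0.994), miR-466i (r = 0.993), miR-669o-P (r = 0.993), miR-669g-P (r = 0.992) and let-7d (r = 0.989). Of these, 4 belong to the repeat families, which supplied 21 miR-466, 8 miR-297 and 21 miR-669 probes to the 560 candidates. miR-466i measured 11.5, 13.0 and 17.6 in cKO and 1.87, 2.85 and 2.60 in Ctrl, a log2 difference of 2.52, beside 2.50 for miR-467f. miR-425, which is encoded with miR-191, and let-7d, of the let-7 family, had smaller log2 differences of 0.75 and 0.77. With each group's mean removed, r was 0.943 for miR-669b-P, 0.893 for miR-425 and 0.715 for let-7d. For the remaining repeat-family probes it was 0.839 (miR-466i), 0.817 (miR-669o-P) and 0.846 (miR-669g-P), all below miR-425.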

How the data were processed

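MicroRNA arrays of 3 cKO and 3 Ctrl mice were analysed from the deposited table of 2990 probes, 1 array a mouse. Per the labels' protocols, cDNA was primed from total RNA by random octamers carrying biotin and detected through a streptavidin-Alexa647 conjugate. The deposited values were read as linear intensity divided by 1 constant per array. That constant was set so that the highest value of an array equals the 16-bit limit of 65535, which gave 829 to 987.5. Multiplied by it, at least 99.97% of the values are whole multiples of 0.25 (within 0.01). Not given in the sources used here: the authors' image software, background correction and normalization. No depth applies; the number of arrays limits the precision.

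The log2 of the values was fitted over all 1083 mouse-named probes with limma 3.58.1 in R 4.3.3 (eBayes with trend, a two-sided test, Benjamini-Hochberg threshold 0.05), without further normalization and without a block. Figures used Python 3.11.15 and matplotlib 3.10.9. A probe is named with its values where it lies above the random-sequence level on all 3 arrays of a group; likeness follows a rule of highest Pearson r. The members, lists and tests were chosen with earlier results of these data known. Same-numbered cKO and Ctrl arrays deviated weakly together from their group means (r = 0.104, 0.124 and 0.178 over mouse probes). By a rule of every r over 0.1 the numbers were taken as pairs for the replicate block and the within-pair differences, not for the reported calls. However, cKO 2 and Ctrl 1 also reached 0.114, so these r do not establish a pairing. The labels give only that the mice are littermates. Alternatives were other scalings, backgrounds, filters and floors, no trend, no moderation, the replicate block and leaving out each array.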

Additional observations from a re-analysis of the deposited data

How the results depend on the processing

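The number of miR-467 probes called was 5 to 7 when each array was left out in turn and 2 without moderation of the variances (miR-467f and miR-467d*), against 6 as reported. Over all mouse probes the count was 34 to 129 when each array was left out, against 74. Leaving out replicate 2 or 3 of cKO gave 46 and 129, and leaving out replicate 1 or 3 of Ctrl gave 34 and 48. Quantile normalization gave 40 calls and scaling by the snoRNA and GAPDH probes 345. There were 6 without moderation and 43 without the miR-297, miR-466 and miR-669 probes. With the replicate block 7 miR-467 probes were called in place of 6, the added one being miR-467g, and 95 mouse probes in all; the block ended no call of a miR-467 probe. The median log2 difference of the miR-467 probes (0.37 as reported, 0.26 to 0.44 with an array left out) was 0.15 after quantile normalization, -0.21 relative to the snoRNA and GAPDH mean, 1.77 after subtracting the random-sequence median, 0.84 over the 12 probes above the random-sequence level, 0.53 without -P probes and 1.55 over the 9 probes left with values raised to 1; the last 3 rest on fewer probes. Signs turned for probes that were not called: with quantile normalization miR-467f-P was at -0.46 and miR-467h at -0.31; with snoRNA and GAPDH scaling miR-467a was at -0.14, miR-467c at -0.28, miR-467f-P at -0.33 and miR-467h at -0.29; miR-467e ranged from -0.25 to 0.083 with an array left out, and lay above 0 in the runs lacking cKO replicate 1 or 2 or Ctrl replicate 3. The causes of the shifts under quantile and snoRNA and GAPDH scaling were not tested. Measured against the highest random-sequence probe of each array, 9 probes in place of 12 were above background, with miR-467c, miR-467e and miR-467g falling out. The raising to the random-sequence level, the scaling by random-sequence probes and the run without the neighbouring families were chosen after seeing the data.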

Other observations

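The array also holds human-named probes of the neighbouring repeat families, although none for miR-467, and these were read on the same mouse RNA. The human miR-466 probe measured 6.86, 6.99 and 8.40 in cKO and 1.14, 2.12 and 1.52 in Ctrl, a log2 difference of 2.26, and its groups did not overlap. The human miR-297 probe averaged 1.03 ± 0.191 (SD) over the cKO arrays and 1.02 ± 0.105 over the Ctrl arrays, and the human miR-466-P probe 2.49 ± 0.831 and 2.66 ± 0.233. These probes were chosen after their values were seen.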
